A study of Bos taurus with 23 samples.

Results

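Interferon tau acting alone on bovine endometrium was examined in 12 of the 23 libraries of the series, 6 explants cultured in medium (Control) and 6 cultured with the recombinant protein (IFNT). The libraries were chosen by their treatment label and were joined in 6 pairs by the number written after the letter U in the sample titles (1, 2, 3, 4, 5 and 10). The labels do not spell out what this number stands for, and it is called the uterus here. All explants came from cattle (Bos taurus) uteri collected in mid luteal phase, when the corpus luteum secretes progesterone, and were punched from the intercaruncular endometrium, the gland-bearing lining between the sites where the placenta attaches. Both groups were kept in RPMI medium with the luminal side up, and the treatment lasted 6 h. The IFNT medium held 100 ng per mL of the recombinant ovine protein, so a sheep protein was given to cow tissue at 1 dose and 1 time. The other 11 libraries of the series, from explants cultured with a conceptus, enter only 1 alternative model.

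Before it attaches, the trophoblast of the ruminant conceptus secretes interferon tau, a type I interferon. Type I interferons bind a receptor at the cell surface and switch on a broad set of interferon-stimulated genes, among them antiviral proteins and the machinery of antigen presentation. In the uterus the signal is known for restraining the pulses of prostaglandin that would end the life of the corpus luteum, and so for maternal recognition of pregnancy.

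Messenger RNA reads were counted per gene, and the deposited table names genes by Ensembl identifier only. The symbol table at hand for the cattle genome held no Ensembl identifiers and so matched 0 of these. No gene can be called by its symbol here, and no value is given for the interferon-stimulated genes of textbooks. The tissue label was not checked against marker genes of its cell types. Responding genes are therefore described by direction, strength, level and evenness over uteri, with 2 identifiers that rose and 2 that fell as examples. Total counts lay between 19461678 and 32152427 in Control and between 24416081 and 31216891 in IFNT, and 14177 to 14682 genes per library reached 10 reads. In whole tissue, a lower level can come from fewer cells of a type or from less RNA per cell, and these cannot be told apart.

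Interferon tau raised more genes than it lowered. Of the 14491 genes tested in a model that compared the 2 explants of each uterus, 548 were higher (3.78% of those tested) and 114 were lower (0.787%) at an edgeR adjusted p under 0.05. The 662 genes called made up 4.57% of those tested. The median log2 fold change was 1.23 in risen genes, -0.63 in fallen genes and -0.02 over all genes tested. Without the uterus in the model the same libraries gave 364 higher and 13 lower genes, of which 362 and 13 were also called with it. DESeq2 with the uterus in the model called 738 higher and 310 lower genes, and limma-voom with the uterus called 569 and 123. The number of fallen genes thus depended on the tool, with limma-voom close to edgeR. Explants of 1 uterus resembled each other, and the biological coefficient of variation was 21.0% with the uterus in the model and 35.4% without it.

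The response was strong in one direction. Among the risen genes 324 changed at least 2-fold, 152 at least 4-fold, 89 at least 8-fold and 26 at least 64-fold. Among the fallen genes 24 changed at least 2-fold and 1 at least 4-fold. The highest log2 fold change was 8.94 and the lowest was -2.07. Small changes were also called, down to log2 fold changes of 0.30 for risen and -0.34 for fallen genes.

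**Figure D1:**
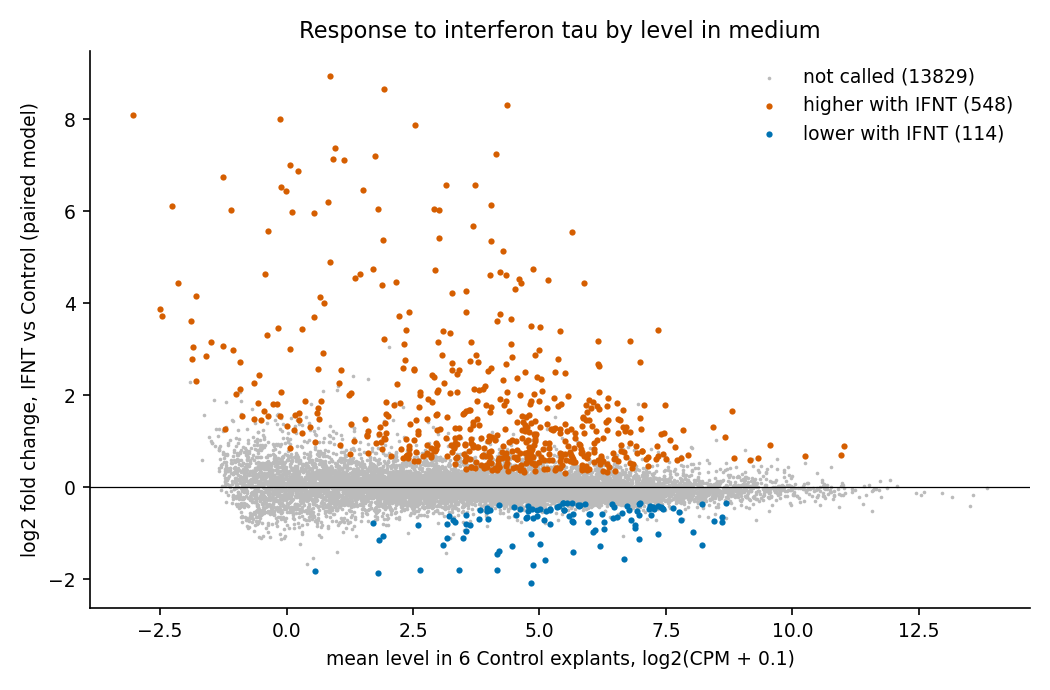
Each point is 1 of the 14491 genes tested, with its mean level in the 6 Control explants on a log2 scale (CPM plus 0.1, horizontal) and its log2 fold change with interferon tau (vertical); orange points were called higher and blue points lower. The 548 risen genes spread up to a log2 fold change of 8.94, while the 114 fallen genes end at -2.07.

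ENSBTAG00000008471 had the highest log2 fold change of all called genes. Its normalized level, in CPM (counts scaled to the size of the library), ran from 0.718 to 4.34 in Control, with a median of 1.15. With interferon tau it ran from 222 to 1766 CPM, with a median of 758. The groups did not overlap, and the gene went from 17 to 88 reads per Control library to between 6688 and 49886 per IFNT library. The treated explants fell far apart, with uteri 1 and 3 at 1665 and 1766 CPM and uteri 2 and 5 at 257 and 222 CPM. The log2 fold change was 8.94 ± 0.33 (SE, edgeR adjusted p = 8.13e-07). Within uteri, the log2 difference was lowest in uterus 5, at 7.55, and highest in uterus 4, at 9.61.

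ENSBTAG00000009768 rose almost as much and more evenly. Its level was 3.70 CPM ± 1.37 (SD, n = 6) in Control, from 2.16 to 5.92, and 1507 CPM ± 527 (SD, n = 6) with interferon tau, from 694 to 2167. The lowest explant in both groups was that of uterus 2, and the ranges were far apart. The log2 fold change was 8.66 ± 0.19 (SE, edgeR adjusted p = 1.3e-07). The log2 difference within uteri was lowest in uteri 1 and 2, at 8.28 in both, and highest in uteri 10 and 3, at 9.04 and 9.14. Uteri 5 and 4 lay between, at 8.35 and 8.71. Its place among expressed genes went from 11432 in Control to 68 with interferon tau, counted from the most abundant of the genes tested by CPM, a scale that does not correct for gene length.

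ENSBTAG00000008735 had the lowest log2 fold change of all called genes. It ran from 17.5 to 39.5 CPM in Control, with a median of 30.3, and from 4.46 to 10.5 CPM with interferon tau, with a median of 6.21. The groups did not overlap. The log2 fold change was -2.07 ± 0.15 (SE, edgeR adjusted p = 4.31e-05). All 6 uteri showed the fall, from -1.50 in uterus 10 to -2.51 in uterus 4 on the log2 scale.

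ENSBTAG00000017718, the gene with the next lowest fold change, was weakly expressed and less secure. It ran from 1.35 to 8.83 CPM in Control, with a median of 1.99, and from 0.307 to 1.39 CPM with interferon tau, with a median of 0.897. The ranges overlapped slightly, because the treated explant of uterus 1 at 1.39 CPM lay above the Control explant of uterus 10 at 1.35 CPM. The IFNT libraries held only 8 to 37 reads of this gene. The log2 fold change was -1.86 ± 0.37 (SE, edgeR adjusted p = 0.0236). The fall was largest in uterus 3, at -3.16, and small in uteri 1 and 10, at -0.64 and -0.59. The fall was of like size without uterus 3, at -1.54 (edgeR adjusted p = 0.0705), without uterus 4, at -1.79 (edgeR adjusted p = 0.0755), and without uterus 5, at -1.83 (edgeR adjusted p = 0.0731), but was no longer called. The model without the uterus gave -2.04, also not called (edgeR adjusted p = 0.0545).

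**Figure D2:**
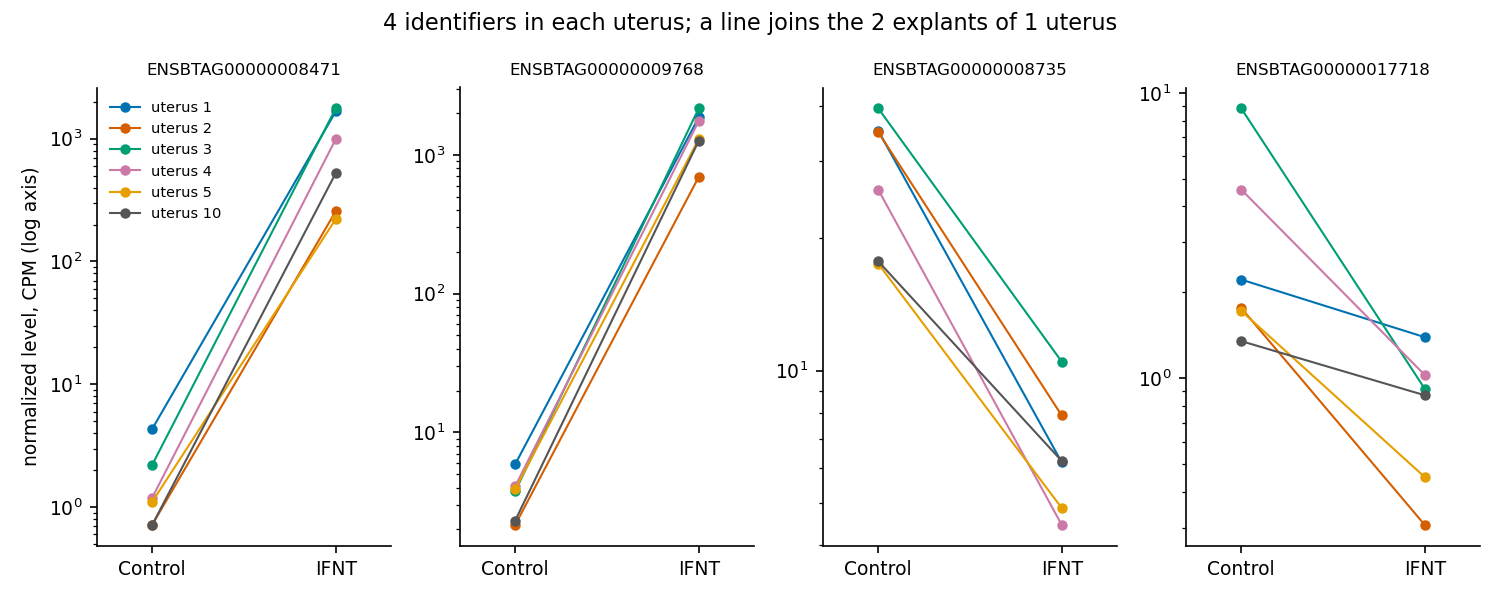
Normalized level in CPM (vertical, log axes that differ between panels) of 4 identifiers in the Control and IFNT explant of each uterus, where a line joins the explants of 1 uterus. Every line rises for ENSBTAG00000008471 and ENSBTAG00000009768 and falls for ENSBTAG00000008735 and ENSBTAG00000017718, with shallower lines for the last in uteri 1 and 10.

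The strength of the rise differed with the level in medium. Genes under 1 CPM in Control gave 44 risen genes of 1079 tested (4.08%), with a median log2 fold change of 2.999 and 22 genes raised at least 8-fold. From 1 to 10 CPM, 143 of 4297 genes rose (3.33%), with a median of 1.59. From 10 to 100 CPM, 313 of 7247 rose (4.32%), with a median of 1.01. At 100 CPM or more, 48 of 1868 rose (2.57%), with a median of 0.89. The rise was thus smaller at higher levels, and 2 genes at 100 CPM or more rose 8-fold. Small changes are called more easily in abundant genes, and a gene that is low in Control by chance has a positive fold change. The median log2 fold change of all tested genes was 0.13 under 1 CPM and -0.07 at 100 CPM or more, and the part of either effect in the pattern was not tested.

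The filter on low counts also favours genes that are high in 1 group. It asks for 0.363 CPM in at least 6 libraries, and 37 of the 548 risen genes did not reach this in every Control library. Of the 13469 genes that did, 3.79% rose. Every risen gene had at least 1 read in at least 1 Control library.

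The share of genes that fell was larger among abundant genes than among weakly expressed ones, but below the share that rose in every band of level. Under 1 CPM, edgeR, DESeq2 and limma-voom called 0 fallen genes, and 20 had an unadjusted p under 0.05 in edgeR. In the edgeR model 13 genes fell between 1 and 10 CPM (0.303%), 70 between 10 and 100 CPM (0.966%) and 31 at 100 CPM or more (1.66%). Their median log2 fold changes were -1.07, -0.60 and -0.52 in these 3 bands. Small changes are called more easily in abundant genes here too, and the median of all tested genes at 100 CPM or more was -0.07. The part of either in the pattern was not tested. The median level of the fallen genes was 44.5 CPM in Control and 30.7 CPM with interferon tau, and that of the risen genes went from 18.3 to 55.9 CPM.

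The risen genes took a larger share of the counts with interferon tau, and the gain was concentrated in few genes. Shares and CPM are relative to the library and do not give the amount of transcript in an explant. The 548 risen genes took 2.68% ± 0.154 (SD, n = 6) of all counts in Control and 8.94% ± 1.99 (SD, n = 6) with interferon tau. The 114 fallen genes took 0.902% ± 0.0374 (SD, n = 6) and 0.564% ± 0.0547 (SD, n = 6). These genes were chosen in the same libraries, so the shares describe the size of the change and test nothing. Over the mean of 6 explants, the risen genes gained 66403 CPM and the fallen genes together fell by 3051 CPM. The 10 genes with the greatest gain held 32.3% of all gained CPM, and 25 genes held 50% of it or just over.

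Most of the gain came from genes of middle level in Control. Genes from 10 to 100 CPM gained 38907 CPM, those at 100 CPM or more 15940 CPM, those from 1 to 10 CPM 10781 CPM and those under 1 CPM 775 CPM. The gene with the greatest gain, 9.54% of the total, went from a mean of 20.5 CPM, between 9.43 and 41.3 in the 6 Control explants, to 6354 CPM, between 2766 and 10410 with interferon tau. It became the 6th most abundant gene from rank 6777. ENSBTAG00000009768 ranked 6th by gain. In contrast, the gene ranked 4th by gain went from 2076 to 3806 CPM, a log2 fold change of 0.89 (edgeR adjusted p = 0.0162), and the gene ranked 8th from 1998 to 3285 CPM, a log2 fold change of 0.71 (edgeR adjusted p = 0.0402). The Control and IFNT ranges of the gene ranked 8th, 1769 to 2551 and 2414 to 4000 CPM, overlapped. Of the 100 most abundant genes in Control 3 were risen genes, and of the 100 most abundant with interferon tau 13 were.

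The response ran in the same direction in nearly all uteri. Of the 548 risen genes, 533 were higher in the treated explant of all 6 uteri and 15 in 5 of 6. Of the 114 fallen genes, 107 were lower in all 6 and 7 in 5 of 6. Over all genes tested, 6.09% were higher and 6.2% were lower in all 6 uteri. In 308 risen genes every IFNT library lay above every Control library, against 2.22% of all genes tested, and in 13 fallen genes every IFNT library lay below, against 0.159%. These genes were called on the same values, so the counts describe their evenness and do not test it.

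Strong responders varied more between uteri on the log2 scale, but less relative to the size of their rise. Among risen genes whose average log2 CPM was 3 or more, the SD of the log2 difference over the 6 uteri had a median of 0.29 for the 204 genes raised under 2-fold. It was 0.46 for the 135 genes raised 2- to 4-fold, 0.64 for the 48 genes raised 4- to 8-fold and 0.72 for the 76 genes raised 8-fold or more. The SD divided by the mean difference went the other way, with medians of 0.448, 0.334, 0.254 and 0.150. The groups of libraries did not overlap in 23.0% of the genes in the first of these classes and in 94.7% of those in the last, against 2.22% of all genes tested at any level. The classes were cut by the size of the rise, which also divides the SD, and a larger rise separates the groups more easily. The ratio and the lack of overlap therefore describe these genes and do not test their evenness. Fallen genes of that level had a median SD of 0.26 (101 genes), close to the 0.26 of the 9287 genes of that level that were not called.

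Evenness was ranked for the 259 risen genes with a log2 fold change of 1 or more and an average log2 CPM of 3 or more, by the SD of the 6 log2 differences divided by their mean. The ratio ran from 0.0451 to 0.668 with a median of 0.267, and it was under 0.25 in 115 genes and over 0.5 in 14. ENSBTAG00000009768 was the most even of the 259. The gene with the greatest gain in CPM ranked 3rd, with log2 differences between 7.63 in uterus 5 and 8.90 in uterus 10. At the other end, the least even gene went from a mean of 0.368 to 33.1 CPM, with log2 differences of 7.11 in uterus 1 and 6.75 in uterus 3 but 1.47 in uterus 2 and 0.74 in uterus 5. All 14 genes with a ratio over 0.5 responded least in uterus 2 (9 genes) or uterus 5 (5 genes), and most in uterus 1 (8 genes), uterus 3 (4 genes) or uterus 4 (2 genes). These uteri held the same places in most risen genes. Of all 548, 61.5% responded least in uterus 2 and 18.2% in uterus 5. The strongest response was in uterus 1 for 30.7%, in uterus 3 for 35.2% and in uterus 4 for 15.1%.

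The size of the response differed between uteri. To read it in explants that had not chosen the genes, risen genes were called in the other 5 uteri and their mean log2 difference was taken in the uterus left out. It was lowest in uterus 2, at 0.96 (658 genes), followed by uterus 5 at 1.68 (453 genes) and uterus 4 at 1.96 (460 genes). Higher values were read in uterus 10, at 2.15 (408 genes), uterus 3, at 2.42 (400 genes), and uterus 1, at 2.46 (387 genes). The mean was 1.94 ± 0.56 (SD, n = 6). Genes called in the other 5 uteri were higher with interferon tau in 80.1% of cases in uterus 2 and in 92.6% to 99.5% in the rest, where between 44.0% and 51.4% of all genes tested were higher. Uterus 2 was thus the lowest on both measures, the mean and the share of genes in the same direction.

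**Figure D3:**
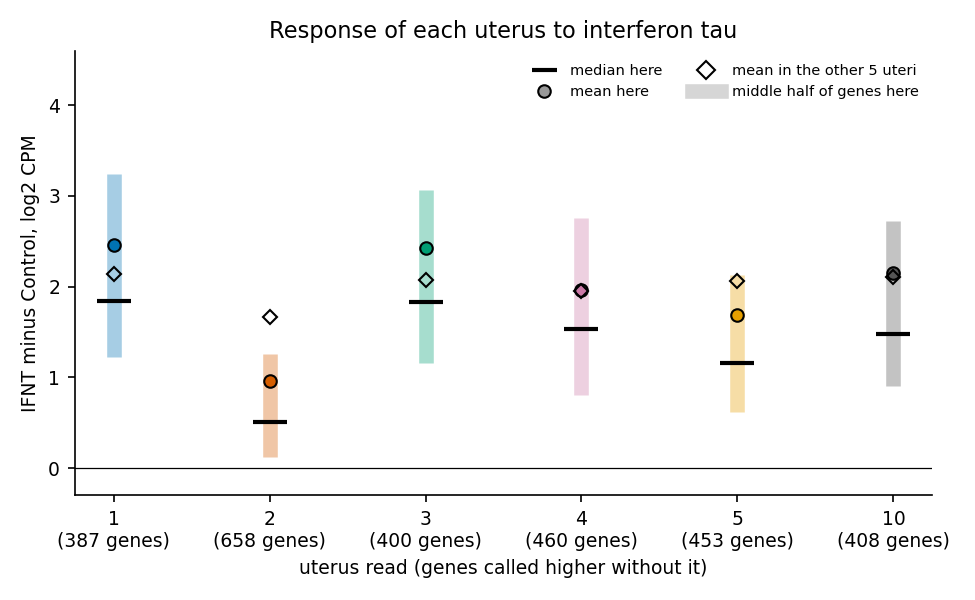
For each uterus (horizontal), genes were called higher in the other 5 and read there: the log2 difference between the IFNT and Control explant (vertical) is shown as its mean (filled circle), median (black line) and middle 50% of genes (bar), and the open diamond is the mean of the same genes in the other 5 uteri. The filled circle of uterus 2 is at 0.96, below its diamond at 1.67, and those of uteri 1 and 3 are at 2.46 and 2.42, above theirs at 2.14 and 2.07.

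The gene sets of the 6 uteri differ, and the set read in uterus 2 holds more weak responders, so the uteri were also compared within classes of strength. For genes raised 8-fold or more in the other uteri, the mean log2 difference was 3.84 in uterus 2 (92 genes) and 4.26 in uterus 5 (90 genes). It lay between 5.03 and 5.49 in uteri 1, 3, 4 and 10 (79 to 82 genes). For genes raised under 2-fold it was 0.18 in uterus 2 (307 genes), where 62.5% of them were higher, and between 0.52 and 0.99 in the rest (98 to 152 genes). Uterus 2 was thus the lowest in both classes. The mean over the other uteri had chosen the genes and lies too high for that reason in each of the 6 readings. The choice was not the same in all, as only the set read in uterus 2 was called without that uterus. In the class under 2-fold, the mean in the other uteri was 0.65 for the set of uterus 2 and 0.74 to 0.77 for the rest. In the class of 8-fold or more it was 4.96 and 4.91 to 4.97. The part of this choice in the low values of uterus 2 was not tested.

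The order of the genes was alike from uterus to uterus. Across the genes read, the log2 differences of a uterus correlated with their mean in the other 5 at r between 0.93 and 0.98, and the slope lay between 0.86 in uterus 2 and 1.11 in uterus 10. These are descriptions across genes, which are not independent and share their libraries. In uterus 2 the departure from the other uteri was -0.47 for genes raised under 2-fold, -0.76 for those raised 2- to 4-fold, -1.12 for those raised 4- to 8-fold and -1.11 for those raised 8-fold or more. Uterus 5 departed in the same direction by less, from -0.24 to -0.66.

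**Figure D4:**
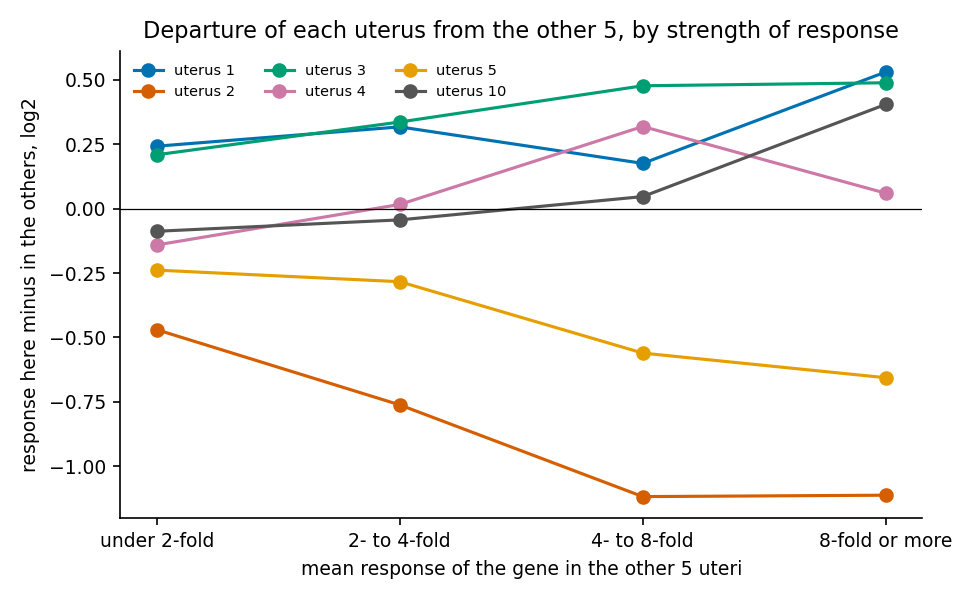
Mean response of a uterus minus the mean response of the same genes in the other 5 uteri (vertical, log2), for genes called without that uterus and grouped by their response in the others (horizontal); each line is 1 uterus. Uterus 2 lies below 0 in all classes, from -0.47 to -1.12, uterus 5 from -0.24 to -0.66, and uteri 1 and 3 lie above 0 throughout.

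Uterus 2 departed from the other uteri more in its IFNT explant than in its Control explant. Over the genes read there, its Control explant differed from the Control explants of the other uteri by 0.01 on the log2 scale, while its IFNT explant differed from the other IFNT explants by -0.71. Each value rests on 1 explant, and the genes were chosen for a difference between the groups in the other uteri. In uterus 1 the values were 0.18 and 0.50, and in uterus 3 they were 0.06 and 0.40. Over the 6 uteri the Control departures ranged from -0.15 to 0.18, a narrower range than that of the IFNT departures. The share of counts taken by the 548 risen genes showed the same, with 2.50% to 2.96% in the Control explants and, with interferon tau, 5.75% in uterus 2, 8.35% to 8.98% in uteri 4, 5 and 10, 10.7% in uterus 3 and 11.4% in uterus 1. The IFNT library of uterus 2 had the lowest total of that group, 24416081, with 14484 genes that reached 10 reads. The explants of uterus 2 also differed more from each other in genes that were not called, with an SD of the log2 difference of 0.59 across genes where the other uteri had 0.29 to 0.49. The part of these features in the weak response was not tested.

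Genes that changed, in either direction, more often varied more between uteri in the treated explants than in Control. Of the 259 genes raised at least 2-fold whose average log2 CPM was 3 or more, 206 had a larger SD in IFNT than in Control (79.5%), against 58.7% of all 9851 genes tested of that level. Their median SD between uteri was 0.36 in Control and 0.55 in IFNT on the log2 scale. The difference was smaller without uterus 2, where the share was 62.9%, against 48.4% of all, and the median SD was 0.36 in Control and 0.42 in IFNT. The 101 fallen genes of that level showed a like share, 69.3% with a larger SD in IFNT, and 66.3% without uterus 2. Neither share was tested against that of all genes.

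Lowered genes kept their direction outside the uteri that chose them as well. Genes called lower in 5 uteri were lower in the uterus left out in 79.1% to 96.5% of cases, over 44 to 97 genes, and their mean log2 difference there was -0.71 ± 0.18 (SD, n = 6). Of all genes tested, 44.0% to 51.4% were higher in a given uterus and nearly all the rest were lower. In uterus 4, where the share of 79.1% was read, 48.3% of all genes tested were higher. The fall was largest in uterus 2, at -1.03 (97 genes), and smallest in uterus 4, at -0.50 (86 genes). Uterus 2, with the smallest rise, thus had the largest fall. Of the 114 fallen genes, 51 had their lowest log2 difference in uterus 2, and of the 548 risen genes, 337 had theirs there (61.5%). The share of all genes tested with their lowest log2 difference in uterus 2 was not taken. The median log2 difference of all genes tested was -0.06 in uterus 2 and from -0.05 to 0.01 in the rest. This lower median and the wide spread of genes not called in uterus 2 go with both counts, and their part in them was not tested.

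Calls of risen genes held better than those of fallen genes when a uterus was left out. Of the 548 risen genes, 362 (66.1%) were called in all 6 fits without 1 uterus, and their log2 fold changes had a median of 1.62. They included 280 of the 324 genes raised at least 2-fold and 83 of the 89 raised at least 8-fold. Of the 114 fallen genes, 28 (24.6%) were called in all 6, with log2 fold changes from -0.60 to -2.07 and 14 of them 2-fold or more. The count of fallen genes became 58 without uterus 1, 57 without uterus 3, 59 without uterus 5 and 44 without uterus 10, and 97 and 86 without uteri 2 and 4. The number of risen genes lay between 388, without uterus 1, and 659, without uterus 2.

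**Figure D5:**
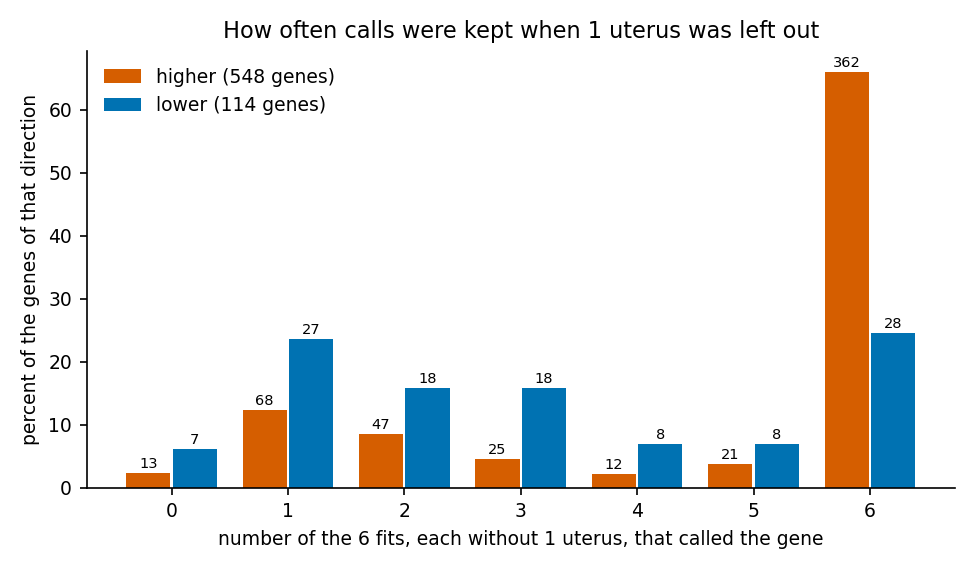
Percent of the 548 risen (orange) and 114 fallen genes (blue) that were called in a given number of the 6 fits that each leave out 1 uterus (horizontal), with the number of genes above each bar. The tallest bar holds the 362 risen genes called in all 6 fits, while the fallen genes spread over all numbers, with 28 called in all 6.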

How the data were processed

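The authors deposited read counts per gene, whole numbers that are not normalized, for 18897 Ensembl identifiers. Tools named in the submitters' processing notes are edgeR, HISAT2 and StringTie, with no role, and the build is UMD3.1. Which tool counted the reads, with which annotation, strand setting and filters, is not given in the sources used here. Counts of overlapping genes and of near-identical copies are therefore less certain.

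The 12 libraries were analysed with edgeR 4.0.16 in R 4.3.3: filterByExpr kept 14491 genes, which held 99.96% of the counts, TMM scaled the libraries, and the quasi-likelihood F test compared IFNT with Control with the uterus as an additive block, which left 5 residual degrees of freedom. P-values were adjusted by Benjamini-Hochberg over all genes tested. CPM uses TMM-scaled totals, and log2 CPM a prior count of 2; SEs were derived from the fold change and F. Deviations from the group means correlated at r = 0.37 to 0.74 across genes in the 6 pairs of the same uterus. The 30 others had a median of -0.12 and a highest value of 0.29. Deviations from a group mean cancel out over the uteri, which by itself pushes these 30 values to be negative. No 2 libraries agreed within sampling noise (lowest chi-square per degree of freedom 71.2 over 66 pairs). The labels do not say that each number is a separate animal. With the uterus in the model, p-values rest on the spread of the difference between IFNT and Control over these 6 pairs. The quasi-likelihood test also draws the spread of each gene toward that of other genes, so no p-value rests on its 6 differences alone.

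Named identifiers are the 2 called genes with the highest and the 2 with the lowest log2 fold change among those with an average log2 CPM of 1 or more. Genes given by rank come from tables of gain and evenness. The 24 gene lists and the search for 2 promoter motifs could not be applied. The symbol table at hand (assembly ARS-UCD2.0) held no Ensembl identifiers and so matched 0. The comparison, groupings and tests were chosen with earlier results of these data known. Alternatives were a model without the uterus, all 23 libraries, DESeq2 1.42.0, limma-voom (limma 3.58.1), other size factors, other filters and leaving out each uterus.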

Additional observations from a re-analysis of the deposited data

Results flagged for a closer look

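Of 26 sets of 6 values checked for a value far from the others (levels and differences of the 4 identifiers, library totals, detected genes, shares of counts and the readings per uterus), 1 stood out, and chance gives about 1 in 20. The correlation across genes between the log2 differences of uterus 10 and their mean in the other uteri was 0.976, above the other 5 values, which began at 0.929.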

How the results depend on the processing

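The 662 called genes, 548 higher and 114 lower, became 377, 364 and 13 without the uterus in the model (no replicate block). DESeq2 with the uterus called 1048, of which 738 were higher and 310 lower, so the share of higher genes was 70.4% there and 82.8% in the edgeR model; the cause was not tested. Leaving out 1 uterus at a time gave 446 to 756 called, 388 to 659 higher and 44 to 97 lower genes. These fits have fewer samples. Leaving out 1 explant takes its partner out of the comparison too and was not run separately. All 23 libraries, limma-voom, median-ratio size factors and both other filters kept all 3 counts within 1.5 times, and 0 genes were called in opposite directions in any of these fits. The log2 fold changes of the 4 identifiers kept their sign wherever they were tested, and of these ENSBTAG00000017718 lost its call, as given above. ENSBTAG00000008471 and ENSBTAG00000017718 were not tested under the filter of 1 CPM in all libraries, which they do not pass. With a 2-fold minimum on the genes read, the response was larger in every uterus, since weak responders leave the sets. It became 1.63 in uterus 2, 3.01 in uterus 3 and 2.61 in uterus 4, each a move above the SD between uteri of 0.56. It became 2.96 in uterus 1, 2.13 in uterus 5 and 2.67 in uterus 10, each a move below that SD. Uterus 2 remained the lowest. A prior count of 0.5 and median-ratio size factors, the latter added after the data were seen, moved no uterus by more than the spread between uteri. The reading of spread without uterus 2 was also added then. The gene lists and promoter motifs were not run. The power to detect falls of genes under 1 CPM was not measured.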
